A study of Mus musculus with 2 samples.

Results

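The genes described here are Pgc, Pga5, Lipf, Chia1, Ctse, Capn8 and Capn9, 7 of the 21911 protein-coding genes examined. They were taken as a named list of gastric enzyme genes and not by any measured value. Each locus was the gene body plus 10 kb before and after it in GENCODE M21 (build mm10). The tissue was stomach of B6NCrl mice at 0 days after birth, in a single group of 2 biological replicates with 1 DNase-seq library each. DNase I cuts DNA where chromatin is accessible, and the cut sites are sequenced. Both libraries carry the same donor label and the sex was not collected, so whether they came from separate animals is not stated, and their spread may be technical. Whole tissue was used, so all cell types of the stomach contribute. No treatment or genotype contrast exists, and each result is a description of these 2 libraries.

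Gastric digestion begins with enzymes that the chief cells of the gastric glands store and secrete. Pepsinogens are inactive aspartic proteases that acid turns into pepsin: Pgc encodes pepsinogen C and Pga5 pepsinogen A. Lipf encodes gastric lipase, which cleaves dietary fat at low pH, and Chia1 the acidic chitinase, which cleaves the chitin of insects and fungi. The remaining genes belong to the surface mucous, or pit, cells. Ctse encodes cathepsin E, an aspartic protease that stays inside the cell, and Capn8 and Capn9 encode stomach calpains, calcium-dependent cysteine proteases that form a complex with each other.

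Peaks, the narrow sites of 150 bp that the authors called in each replicate, numbered 139374 and 152779 on the autosomes, X and Y, and hotspots, the wider stretches of raised cutting, 128245 and 138504. Read depth is unknown, so a weak site may be missed. A shared region is a set of peaks from both replicates that overlap by 1 bp or more, and 105606 were found. Peak signal is the authors' own value with no stated scale, so each is also given as its percentile within its replicate's list. Of the markers of stomach, 15 of 15, among them Sox2, Gata4, Gata6 and Foxa1, had a shared region within 1 kb of a start. Of the markers of other tissues 1 of 15 did (Cela1), and of all protein-coding genes 66.4%. Both marker lists were written with earlier results of these data known, so they are no independent check of the label.

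The 7 loci held 32 shared regions and 27 shared hotspots, distributed very unevenly. Capn8 and Capn9 accounted for 20 of the regions, with 9 and 11. Ctse had 5, Pgc and Pga5 had 3 each, Lipf had 1 and Chia1 none. At least 1 shared region was thus found at 6 of the 7 loci, against 82.0% of all protein-coding loci. The median over the 7 was 3, against 4 over all protein-coding loci. Per 10 kb of locus the median was 1.03, against 0.791 over all loci. Capn9 had 1.76 regions per 10 kb, a density that 16.4% of protein-coding loci reached or passed. Pga5 and Capn8 had 1.03 each, which 38.7% of protein-coding loci reached or passed. Pgc had 1.09, Ctse 0.874 and Lipf 0.281. The order of the loci changed when weak peaks were left out. With the stronger 50% of each list Capn9 had 4 regions, or 0.639 per 10 kb. Pgc and Pga5 had 3 each, or 1.09 and 1.03 per 10 kb. Capn8 had 7 (0.801 per 10 kb), Ctse 4 (0.699 per 10 kb) and Lipf 0. A locus with exactly 11 regions and 10 shared hotspots, as at Capn9, occurred at 99 of the 21911 protein-coding genes, Capn9 included. Exactly 9 regions with 7 hotspots, as at Capn8, occurred at 180, Capn8 included. Loci with more regions or hotspots are not in these counts.

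**Figure D1:**
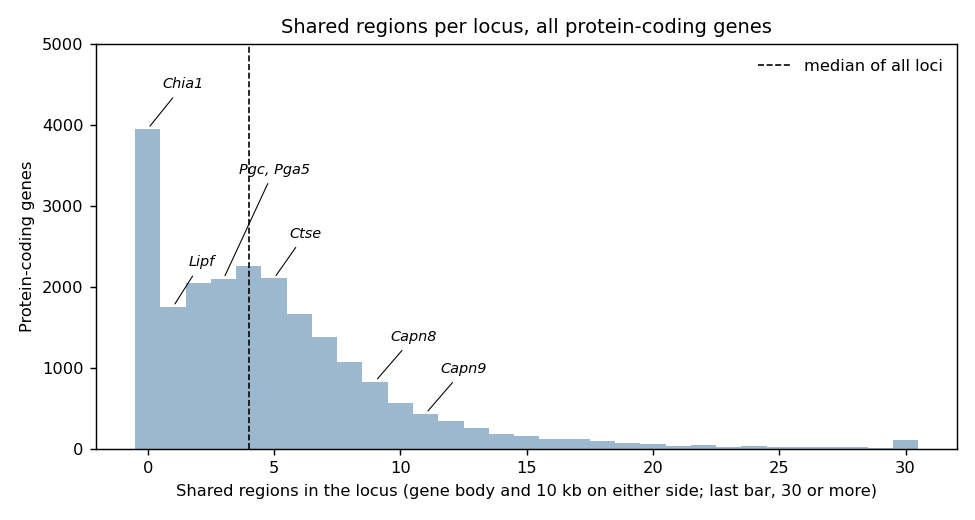
Number of protein-coding genes (vertical axis) by the number of shared regions in their locus (horizontal axis, genes with 30 or more in the last bar), with the 7 enzyme genes marked. Capn8 and Capn9 lie to the right of the median of 4 shown by the dashed line, Ctse just beside it, and Pgc, Pga5, Lipf and Chia1 to its left.

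A promoter was called open where a shared region lay within 1 kb of any annotated start. By this rule 5 of the 7 promoters were open (71.4%), those of Pgc, Pga5, Ctse, Capn8 and Capn9, against 66.4% of all protein-coding genes, so the share itself is near the background. The same 5 had a promoter peak in replicate 1, against 68.2% of all genes, and in replicate 2, against 69.4%, while Lipf and Chia1 had none in either. All 7 promoters were poor in CpG, with 0 to 9 CpG in the 300 bp from 250 bp before to 50 bp after the principal start, against a median of 12 over all protein-coding genes. Among the 9711 genes with fewer than 10, a limit chosen after the data were seen and just above the 9 of Pgc, 34.2% had an open promoter. In whole stomach, few cells with an open site and many cells with a weakly open site cannot be told apart.

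Pgc had 1 shared region that was not near the start of another gene, and it lay at the promoter (gene at chr17:47726842-47734482, plus strand). This region, chr17:47726616-47726785, was centred 141 bp before the start. Its signal was 87 in replicate 1 and 93 in replicate 2, at percentiles 91 and 89.8. It lay in a hotspot of 433 bp at the ceiling of 100 for -log10 q in both replicates. The region is shown because it is the accessible pepsinogen C promoter. All sequences shown are mm10 reference sequence from RefSeq, 5' to 3' on the strand of the gene. Capitals mark the string GGGCGG, the core of the GC box bound by KLF and SP factors, which occurred 2 times, beginning at -97 and -84 bp from the start.
Pgc promoter region: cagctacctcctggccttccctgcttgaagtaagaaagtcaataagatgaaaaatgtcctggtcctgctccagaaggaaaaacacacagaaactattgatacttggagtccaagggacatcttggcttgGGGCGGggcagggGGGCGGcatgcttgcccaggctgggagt
No peak was called inside the Pgc gene itself. The other 2 shared regions of the locus were as strong, but lay 2539 and 3359 bp beyond the gene's end and within 1 kb of a start of Tfeb, a transcription factor of lysosome genes. Their signals were 92 and 87 in replicate 1 and 103 and 104 in replicate 2. In replicate 1 alone a peak at percentile 37.3 lay at -5471 bp from the Pgc start and another, at percentile 67.3, between the regions at Tfeb.

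Pga5 had its strongest site upstream, away from the gene (chr19:10668956-10678071, minus strand). The region at chr19:10685856-10686025, 7870 bp before the start, reached 107 in replicate 1 and 116 in replicate 2, at percentiles 97.5 and 97.9, the highest of all 32. It lay just past the end of the noncoding gene 2210404E10Rik, and its hotspot was at 100 in both replicates. The promoter region at chr19:10678556-10678725, centred 570 bp before the start, was weaker, with 62 in replicate 1 and 67 in replicate 2 (percentiles 75 and 69.7). Its hotspot was also weak, at a -log10 q of 1.74 in replicate 1 and 2.78 in replicate 2. Both are shown on the strand of the gene, with the AP-1 string TGANTCA, the GATA string AGATAA and the SOX string ACAATG in capitals. The promoter region also holds a loose CTCF string, in small letters, beginning at -589 bp from the start.
Pga5 promoter region: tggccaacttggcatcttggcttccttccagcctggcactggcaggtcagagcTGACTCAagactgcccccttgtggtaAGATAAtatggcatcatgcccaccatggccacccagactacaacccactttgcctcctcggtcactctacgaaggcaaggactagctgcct
Pga5 upstream region: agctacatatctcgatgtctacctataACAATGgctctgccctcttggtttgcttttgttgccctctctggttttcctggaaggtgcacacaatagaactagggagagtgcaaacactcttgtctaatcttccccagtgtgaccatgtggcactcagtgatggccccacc
Another shared region, at chr19:10665556-10665725, lay inside Vwce beyond the Pga5 end, with signals of 48 in replicate 1 and 76 in replicate 2. Replicate 1 alone had a peak at percentile 79.4 at -3660 bp from the start, the strongest of the peaks found in a single replicate. No peak fell within the Pga5 gene body.

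Lipf and Chia1 lacked sites at their starts and along their gene bodies. The single shared region of Lipf (gene at chr19:33961187-33976810, plus strand) lay 2401 bp beyond its end, at chr19:33979136-33979285, at signal 39 in replicate 1 and 49 in replicate 2 (percentiles 41.4 and 44.3). The hotspot that holds it was at the ceiling of 100 in both replicates. On the other side, the nearest shared region before the Lipf start was 34342 bp away. Replicate 2 alone had 2 weak peaks past the gene's end, at percentiles 2.45 and 7.25. At Chia1 (chr3:106113229-106132120, plus strand) neither replicate had a peak or a hotspot anywhere in the 38.9 kb locus. Such an empty locus occurred at 13.9% of all protein-coding genes, and at 9.73% of those with a locus of 30 to 50 kb. The 150 bases before each start, chr19:33961037-33961186 and chr3:106113079-106113228, are shown beside the accessible promoters, with ACAATG, found at -148 bp from the Lipf start, in capitals. Other strings searched were found here too. CCAAT occurred 2 times before Lipf and once before Chia1, where TCAAGGTCA and the CAAGGTCA within it also occurred.
Lipf upstream sequence: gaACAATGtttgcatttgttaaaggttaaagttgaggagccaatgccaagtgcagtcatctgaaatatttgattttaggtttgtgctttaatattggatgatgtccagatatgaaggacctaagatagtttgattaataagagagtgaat
Chia1 upstream sequence: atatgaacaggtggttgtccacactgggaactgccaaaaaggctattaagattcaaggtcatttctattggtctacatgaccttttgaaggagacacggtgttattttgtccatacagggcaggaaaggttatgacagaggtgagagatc
The Lipf sequence has 33.3% G and C and no CpG, and the Chia1 sequence 42.7% and 1 CpG. The accessible promoter regions lie at other distances from their starts and differ in length. That of Pgc has 52.9% and 2 CpG, that of Pga5 55.9% and 2, and that of Capn8 50.6% and no CpG. That of Capn9, up to exon 1, has 56.9% and 5 CpG. In the 300 bp around the principal start, Lipf has 0 CpG and Chia1 3. The open members have 9 (Pgc), 3 (Pga5), 2 (Ctse), 1 (Capn8) and 6 (Capn9), a range that includes the 3 of Chia1. The G and C content there is 31.7% at Lipf and 40% at Chia1. At the open members it is 55%, 48.3%, 44.7%, 53.3% and 56%, in the same order. The part of base composition was not tested.

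Chia1 sits in a long stretch with no shared region at all. It runs over 345830 bp (chr3:106102826-106448655) and holds 4 protein-coding genes, Chia1 and the chitinase-like genes Chil3, Chil4 and Chil6. Of the gaps between neighbouring shared regions, 0.769% were as long or longer. Each gap counts once here whatever its length. The share of the genome that lies in such long gaps is therefore larger, and was not counted. Each replicate had 1 peak in it, at percentile 0.306 in replicate 1 and 27.2 in replicate 2, and they did not overlap. The assembly has no unknown base in this stretch, and 56.3% of it is masked as repeats, against 35% of chromosome 3. The part of repeats or of gene copies in the missing calls was not tested.

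**Figure D2:**
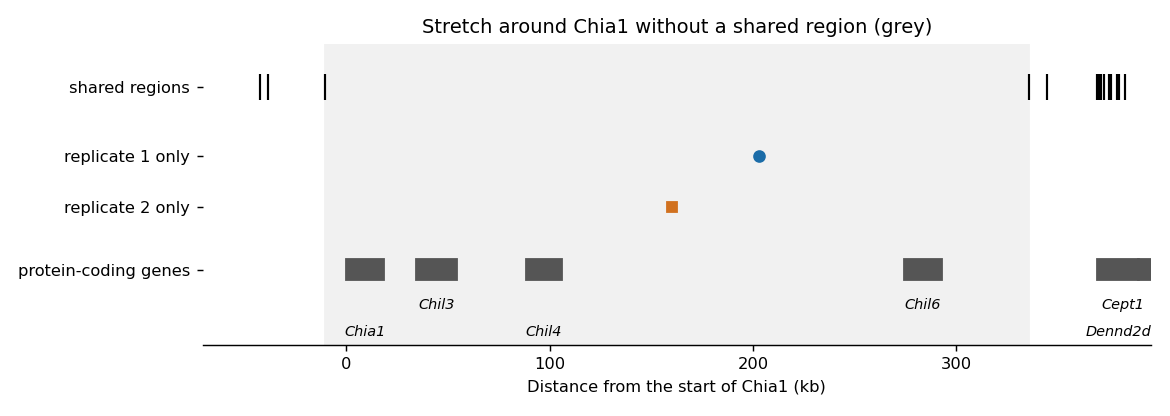
Shared regions (black ticks), peaks of a single replicate (circle, replicate 1; square, replicate 2) and protein-coding genes (bars) against the distance from the Chia1 start in kb. The grey stretch of 346 kb holds Chia1, Chil3, Chil4 and Chil6 and no shared region.

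Ctse had its stronger sites 19965 to 25745 bp inside the gene and a weak one at its annotated start (chr1:131638306-131675505, plus strand). The region over exon 1, chr1:131638316-131638525, reached 40 in replicate 1 and 43 in replicate 2, at percentiles 43.4 and 33.1. Among protein-coding genes with a region within 1 kb of the principal start, 93.4% had one at least as strong closest to it. The strongest region, chr1:131661756-131661925, overlapped the end of the 23.3 kb first intron and the beginning of exon 2, and reached signals of 94 in replicate 1 and 108 in replicate 2 (percentiles 93.7 and 95.8). GENCODE places the start of a further transcript, Ctse-203, which is annotated as a retained intron, 70 bp from its centre. A region in the same intron, chr1:131658196-131658345, had 84 in replicate 1 and 95 in replicate 2. The sequences of these strong sites are shown, the exon 2 site up to the edge of exon 2 (chr1:131661756-131661875), with the FOX string TGTTTA in capitals.
Ctse region before exon 2: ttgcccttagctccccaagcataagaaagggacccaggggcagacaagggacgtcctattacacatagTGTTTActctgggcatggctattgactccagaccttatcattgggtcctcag
Ctse first-intron region: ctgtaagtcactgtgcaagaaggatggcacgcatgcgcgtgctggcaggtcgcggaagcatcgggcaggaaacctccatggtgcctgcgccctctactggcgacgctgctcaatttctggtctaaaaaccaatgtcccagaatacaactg
The FOX string of the exon 2 site extends to TGTTTAC, the longer FOXA form, which 4.29% of all shared regions hold. In small letters, CCAAT was found on either strand in both sequences, and the loose CTCF string in the first-intron region. Both remaining regions lay in intron 4, 370 bp apart, with signals of 56 and 53 in replicate 1 and 66 and 73 in replicate 2. Replicate 2 alone added 4 peaks between 17325 and 24885 bp from the start, at percentiles from 8.62 to 54.2. Every peak of replicate 1 at Ctse was shared.

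Capn8 had its strongest site at the promoter, with a row of sites before it and in the first introns (chr1:182565007-182632352, plus strand). The strongest region, chr1:182564796-182564965, was centred 131 bp before the start of the principal transcript and reached 101 in replicate 1 and 103 in replicate 2, at percentiles 95.9 and 94.2. The other promoter region, centred 411 bp before the start, had 58 in replicate 1 and 78 in replicate 2. In all, 5 regions lay upstream, 1 in intron 1 and 3 in intron 2, and 8 of the 9 were within 10 kb of the principal start. From 20309 bp after the start to the end of the 87.3 kb locus no further shared region was found. Replicate 1 alone had 4 peaks beyond that point, at percentiles of 47.2, 2.29, 1.22 and 20.2, and replicate 2 alone 1, at 25.2. The promoter region is shown with TGTTTA, the SOX string (as CATTGT on this strand) and TGANTCA in capitals.
Capn8 promoter region: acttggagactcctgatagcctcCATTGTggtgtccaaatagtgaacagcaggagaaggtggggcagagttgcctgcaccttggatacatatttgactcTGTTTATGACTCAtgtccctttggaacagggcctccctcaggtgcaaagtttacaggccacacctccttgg
The TGTTTA and TGANTCA strings are side by side, beginning at -117 and -111 bp from the start. The region holds no CpG.

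Capn9 had 11 shared regions and a weak one at the start itself (chr8:124576111-124618731, plus strand). Its count was above the 9 of Capn8 when all peaks were used, but with the stronger 50% of each list Capn9 had 4 and Capn8 7, and without replicate 1 Capn9 had 11 and Capn8 12. The region over the start, chr8:124575856-124576125, was made of 2 peaks in replicate 1 and 1 in replicate 2, with a highest value of 34 in replicate 1 and 44 in replicate 2, at percentiles 30.9 and 35. Of genes with a region within 1 kb of the principal start, 95.1% had one at least as strong closest to it. The strongest region of the locus lay in intron 1, at chr8:124576876-124577065, centred 860 bp after the start, at 101 in replicate 1 and 93 in replicate 2 (percentiles 95.9 and 89.8). Next came a region 2440 bp before the start with 76 in replicate 1 and 95 in replicate 2. The weak start region and the strong intron region are shown, the start region up to the edge of exon 1 (chr8:124575856-124576110), with the E box CAGCTG in capitals.
Capn9 promoter region: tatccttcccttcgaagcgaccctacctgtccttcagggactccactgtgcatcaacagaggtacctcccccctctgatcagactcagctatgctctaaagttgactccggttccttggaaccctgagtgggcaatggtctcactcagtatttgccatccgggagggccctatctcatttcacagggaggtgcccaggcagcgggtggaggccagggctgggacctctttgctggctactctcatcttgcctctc
Capn9 first-intron region: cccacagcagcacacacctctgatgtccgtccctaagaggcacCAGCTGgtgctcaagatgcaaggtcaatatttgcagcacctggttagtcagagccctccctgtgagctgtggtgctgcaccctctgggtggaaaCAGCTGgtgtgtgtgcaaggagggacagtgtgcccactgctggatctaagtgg
The intron region holds the E box 2 times, and the start region holds none of the capitalised strings. The intron region also holds CAAGGTCA and the loose CTCF string, in small letters. Of all 11 regions, 4 lay in intron 1, 3 in introns 12, 18 and 19, and 4 upstream, of which 1 was within 1 kb of a start of Agt, the angiotensinogen gene. In replicate 1 the signal percentile at Capn9 had a median of 37.3, and in replicate 2 of 44.3, with lowest values of 14.4 and 19.2.

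**Figure D3:**
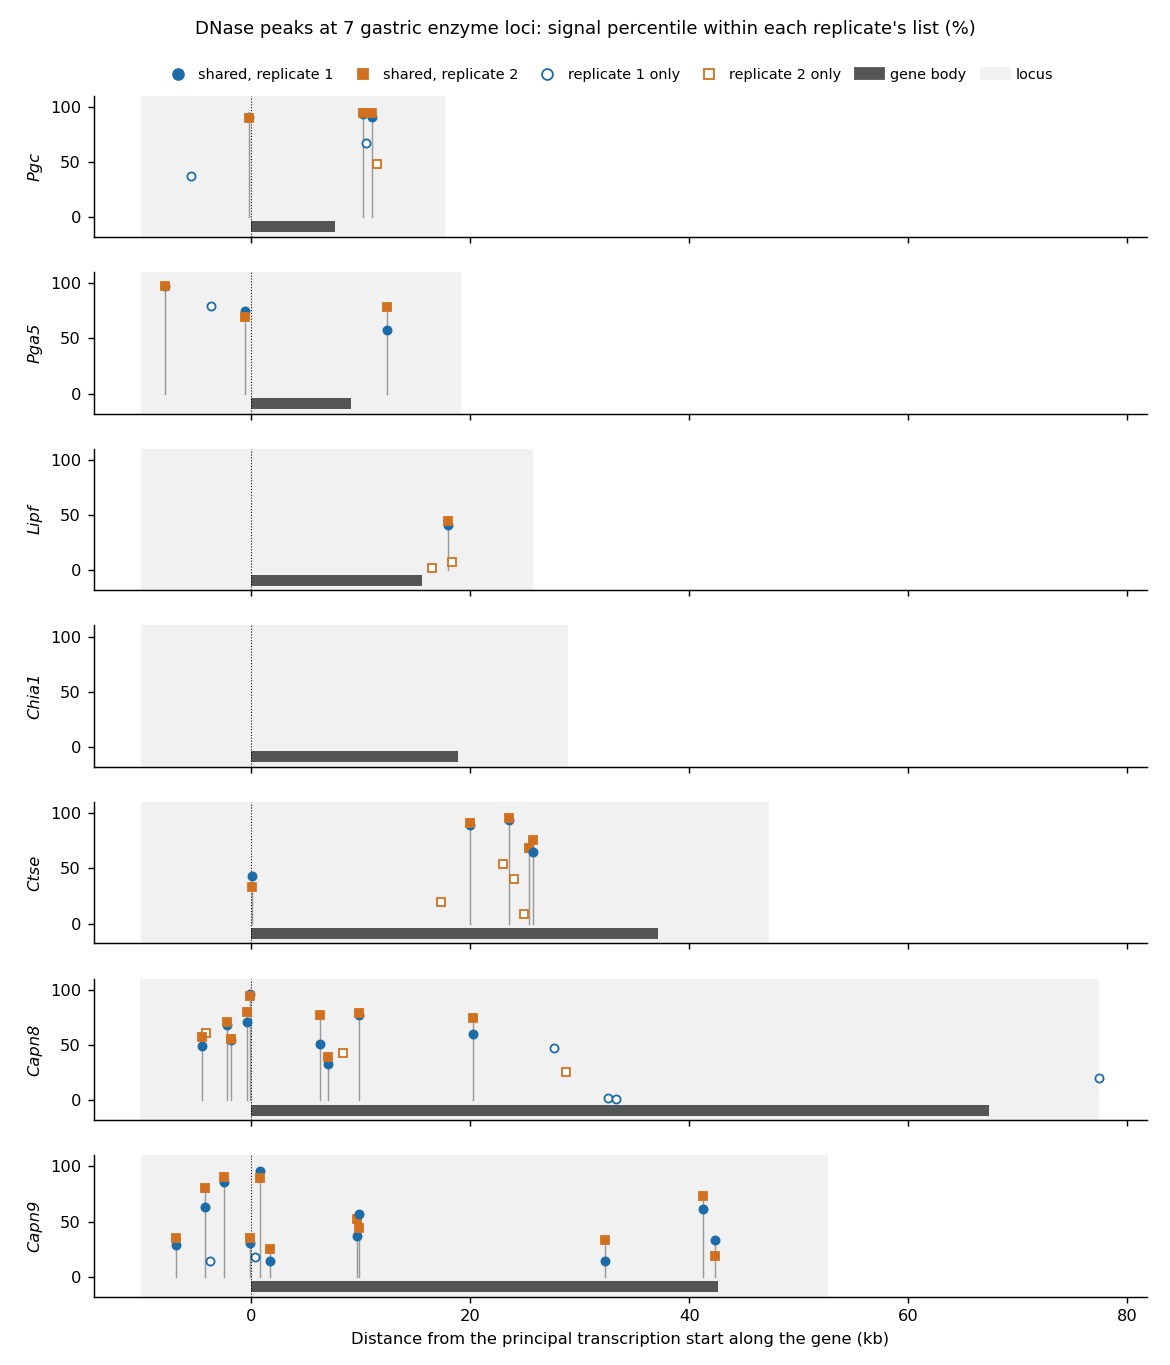
Signal percentile of each peak within its replicate's list (vertical axis, %) against the distance from the principal start in kb along each gene, for the 7 loci. Filled circles (replicate 1) and squares (replicate 2) are shared regions and open symbols are peaks of a single replicate. Pgc and Capn8 have a high point at 0, Ctse has its highest points more than 19 kb inside the gene, and Chia1 is empty.

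The open members differed in where the strongest site lay. It was at the promoter of Capn8, in the first intron at Capn9, at the second exon of Ctse, upstream at Pga5, and beyond the gene next to Tfeb at Pgc, with the Pgc promoter close behind at a mean percentile of 90.4 against 93.6. Set against the strongest promoter region of each of the 14558 genes with an open promoter, whose median was a mean percentile of 92.5, Capn8 stood at 95, Ctse at 94.8, Capn9 at 92.9, Pgc at 90.4 and Pga5 at 72.3. A value at least as high was found at 38.7% of them for Capn8, 40.1% for Ctse, 48.8% for Capn9, 57.6% for Pgc and 80.9% for Pga5. The values of Ctse and Capn9 in this ranking are those of the strong sites inside the gene. For the region closest to the principal start, the mean percentile was 38.3 at Ctse and 33 at Capn9. The median was 91.3 over the 13530 genes with a region within 1 kb of that start. Capn8, Pgc and Pga5 had the same values by either measure. By place, 15 of the 32 regions lay in introns, 12 upstream, 4 beyond the gene's end and 1 in an exon. Within 1 kb of an own start there were 8, and within 1 kb of a start of another gene 3. The places of all shared regions were not counted, so these counts have no background beside them.

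Most of these regions ranked higher in replicate 2. The label of replicate 2 names 2 sequencing instruments and that of replicate 1 none, and the part of the instrument was not tested. The median percentile of the 32 regions was 62.6 in replicate 1 and 73.9 in replicate 2, against 60.4 and 63.8 for all shared regions. The percentile was higher in replicate 2 at 25 of the 32, against 55.5% of all shared regions. A mean percentile of 90 or more was found at 8 of the 32 (25%), against 13.2% of all shared regions, and 2 of these 8 were those at Tfeb. Each replicate had 42 peaks in the 7 loci. Of those of replicate 1, 78.6% overlapped a peak of replicate 2, against 77.6% of all its peaks, and of those of replicate 2, 76.2% overlapped one of replicate 1, against 70.7%. The 9 peaks found in replicate 1 alone had a median percentile of 20.2 and the 10 found in replicate 2 alone one of 33. All 32 regions lay in a shared hotspot, but the share of all shared regions that do so was not counted. Of the 27 hotspots, 12 (44.4%) were at 100 in both replicates, against 42.2% of all shared hotspots.

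**Figure D4:**
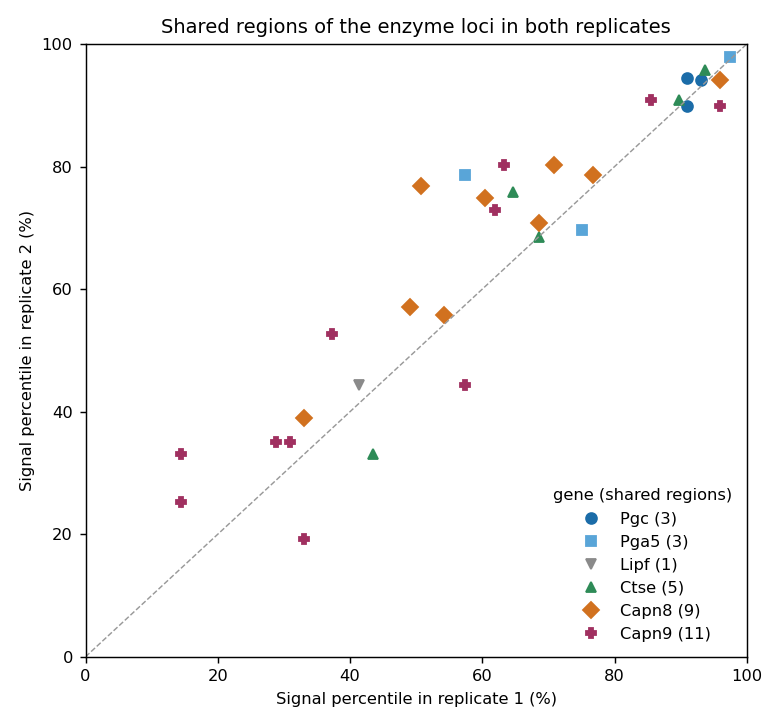
Signal percentile in replicate 2 (vertical axis, %) against that in replicate 1 (horizontal axis, %) for each of the 32 shared regions, by gene. Points above the dashed line of equal percentiles, 25 in number, were higher in replicate 2, and the Pgc regions lie together near the upper right corner.

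Related genes gave further context, from lists written with earlier results of these data known. Of the aspartic protease family 7 of 9 genes (77.8%) had an open promoter, against 66.4% over all protein-coding genes. These included Pga5, Pgc, Ctse and the lysosomal cathepsin D gene Ctsd, while the renin gene Ren1 and Napsa had no shared promoter region and Napsa had a promoter peak in replicate 1 only. Of the calpain family 11 of 15 (73.3%) were open, including the ubiquitous Capn1 and Capn2, Capn5 and Capn6, while the muscle calpain Capn3 and Capn11, Capn12 and Capns2 were not. The acid lipases had 3 of 9 (33.3%), with the lysosomal lipase gene Lipa, Lipn and Lipo3 open and Lipf, Lipk, Lipm and Lipo1 among those without. The chitinase family had 4 of 10 (40%), with Chit1, Chil1, Chid1 and Ctbs open and Chia1, Chil3, Chil4 and Chil5 among those without.

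Most genes of the other stomach lists had an open promoter, read against the same 66.4%. Of the chief cell list 15 of 18 genes had an open promoter, with Bhlha15 and Xbp1, regulators of the secretory apparatus, and the intrinsic factor gene Gif among them, and Cpb1, Copz2 and Pdia2 without. Of the pit cell list 16 of 19 did, with Muc5ac, Gkn1, Gkn2 and Gkn3 among them and Foxq1, Fer1l6 and Gcnt3 without. The median number of shared regions was 5.5 for the chief cell list and 7 for the pit cell list. The chief cell list also holds genes known from other stomach cell types, a hormone gene and mucous cell genes among them. Its count is thus not one of chief cells alone. Parietal cell genes of acid secretion had 13 of 14 open, and the trefoil factor and gastrokine genes 3 of 3 each. Of the pancreatic digestive list 6 of 22 genes were open. Pnliprp2, Clps, Cela1 and Cela3b were among them, and Pnlip, Pnliprp1, Cel and Amy2a5 among those without. The list also holds genes that encode no enzyme, such as the colipase gene Clps. Of the intestinal brush border list 5 of 12 genes were open. Anpep, Alpi, Dpp4 and Vil1 were among them, and Lct, Sis, Mgam and Treh among those without. Not all genes of this list encode enzymes either, as Vil1 encodes the structural protein villin. Several genes stand in more than 1 of these lists and are counted in each. Cpb1 is in the chief cell and pancreatic lists, Gif in the chief cell and parietal lists, and Tff2 in the chief cell and trefoil lists. Tff1 is in the pit cell and trefoil lists, and Gkn1, Gkn2 and Gkn3 are in the pit cell and gastrokine lists. The 7 enzyme genes are likewise members of the family lists. None of these differences between lists was tested.

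**Figure D5:**
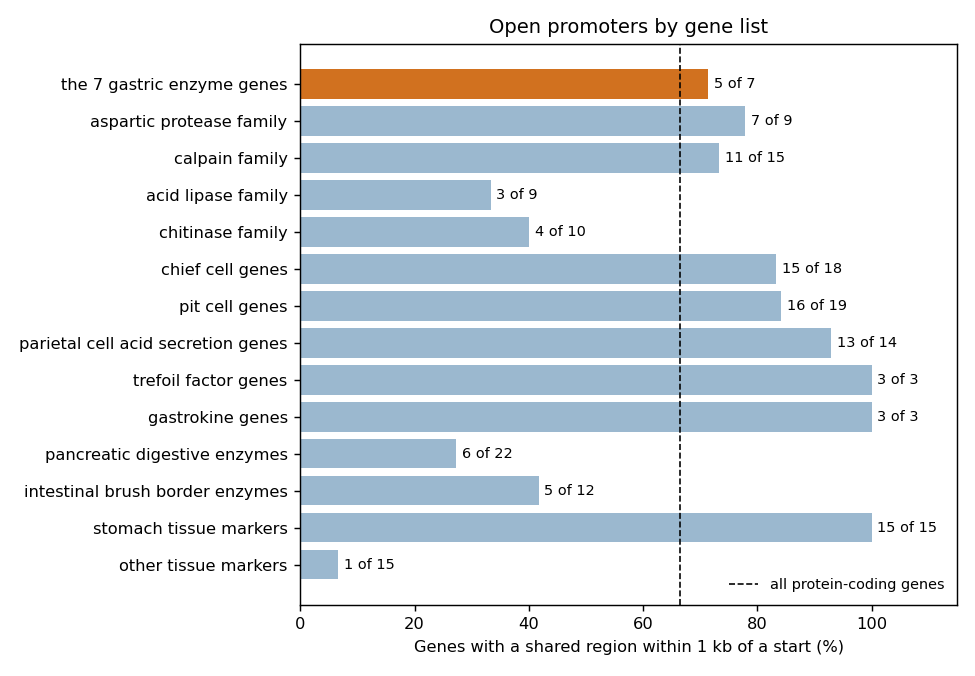
Percentage of genes with a shared region within 1 kb of a start (horizontal axis) for the 7 enzyme genes (top bar) and for the comparison lists, with counts beside the bars and all protein-coding genes as a dashed line at 66.4%. The enzyme genes lie close to that line, the acid lipases and chitinases below it, and the other stomach lists above it.

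None of the short strings searched occurred in more than 6 of the 32 regions. In the 150 bp at the centre of each region, 26 strings were searched on both strands. CAGCTG was found in 6 of the 32 regions (18.8%), against 10.6% of all 105606 shared regions. AGATAA was in 5 (15.6%, against 8.82%), CCAAT, the NFY string, in 5 (15.6%, against 17.8%), and a loose CTCF string in 5 (15.6%, against 9%). GGGCGG was in 4 (12.5%, against 16.4%). These shares rest on few regions each, and a difference of 1 region moves them by 3.12 percentage points. The FOX string TGTTTA was in 3 (9.38%, against 11.5%), as were the SOX string ACAATG (against 6.87%), the more general SOX string ACAAAG (against 13.2%), and the AP-1 string TGANTCA (against 12.1%). GGAATG, the TEAD string, and TTTATNG, the CDX string, were in 2 each (6.25%), against 9.21% and 4.88%. TGTTTAC, AACCNGTT, the GRHL string, and the nuclear receptor string CAAGGTCA were in 1 each (3.12%), against 4.29%, 2.05% and 1.03%. The others were in none, namely TATAAA (in 5.72% of all shared regions), CAAAGTCCA (0.965%), the HNF1 string (0.134%), CCACACCC (3.68%), CCGGAAG (3.22%), the ELF string (0.122%), TCAAGGTCA (0.269%), CATATG (1.96%), TGACGT (3.54%), TGACGTCA (0.763%), GTGGGAA (3.1%) and TAATTA (2.23%). Some strings contain another: TGTTTAC contains TGTTTA, TCAAGGTCA contains CAAGGTCA, TGACGTCA contains TGACGT and the ELF string contains CCGGAAG. A match is a match of letters only. The median G and C content of the 32 windows was 51.3%, and that of all shared regions was 51.3% as well.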

How the data were processed

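DNase-seq was done on newborn mouse stomach, with 1 library for each of 2 biological replicates. Per the deposited file lists, peaks and hotspots were derived from each replicate's own filtered alignments on mm10. What aligner, caller and thresholds were used, and the read depth, is not stated in any source used here. The deposited peak signal is a number of at most 149 on the chromosomes used, with no stated normalization, and was used only to describe and rank peaks within a list. The deposited hotspot value is, by the file layout, a q value on the -log10 scale, with a ceiling at 100.

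Intervals on scaffolds and the mitochondrial chromosome were left out of the regions. Peaks (and, separately, hotspots) of both replicates that overlapped by 1 bp or more were joined in Python 3.11.15 with pandas 2.3.3. The joining was tested on simulated intervals and gave the same numbers of partnered peaks as bedtools 2.31.1, 108195 and 108051. The principal transcript is the one GENCODE M21 tags as principal. Sequences came from the RefSeq copy of GRCm38.p6, the same build, with exon bases left out. The RefSeq promoter table, which holds 5 of the 7 genes, was not used. The symbols Cblif, Troy, Dpcr1 and Amy2b matched no gene symbol in GENCODE M21 and were dropped. Only symbols were matched, and a gene can be annotated and listed under another symbol. A further gene of the chief cell and pancreatic lists is not reported here and was left out of their counts.

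The members and lists were chosen with earlier results of these data known. All 7 members are named, and from each list up to 4 genes with and 4 without an open promoter in list order. With a single group nothing was tested, and no p-value is given. Alternatives changed the replicates, the signal limit, the overlap, the list length, the locus, the promoter window and the starts used.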

Additional observations from a re-analysis of the deposited data

How the results depend on the processing

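The 5 open promoters were found in either replicate alone (5 and 5), with the stronger 50% of each list, with an overlap of at least 50% of both peaks, with equal list lengths, with a 2.5 kb window and with starts of the basic set only. A window of 250 bp left 4 of 7, without Pga5, a share below the 62.6% of all protein-coding genes open by that window. The background share moved with the rule as well, from 66.4% in the main setting. It was 70% for the 2.5 kb window, 64.5% for starts of the basic set, and 59.2% once weaker peaks were dropped. The count of 5 is to be read against these shares, and no difference from them was tested. With the stronger 50% of peaks, the weak regions at the starts of Ctse and Capn9 fall away and their calls rest on the regions at exon 2 and in intron 1. The 32 shared regions became 42 without replicate 1 and 42 without replicate 2, and the 27 shared hotspots 35 and 38. With the stronger 50% of each list there were 21 regions and 15 hotspots, over gene bodies alone 17 and 17, and with 50 kb on either side 89 and 80. These counts follow from fewer peaks and from narrower or wider loci. Without regions within 1 kb of the start of another gene 29 remained. The single region of Lipf is lost with the stronger 50% (0), and 1 of the 3 at Pgc is left without those near Tfeb. Capn9 falls to 4 regions with the stronger 50%, below the 7 of Capn8, and without replicate 1 it has 11 against 12. Of 56 counts for single genes, 39 stayed within 1.5 times. The 39 include Chia1, which stayed at 0 in each setting but that of 50 kb. They also include equal list lengths, which changed no count. No paired analysis was possible because there is 1 group. The depth is unknown, so weak sites and sites in few cells could be missed.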
